A study of Mus musculus with 5 samples.

Results

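The genes described here encode the subunits of RNA polymerases I, II and III (Pol I, Pol II and Pol III) and the general transcription factors that place them at promoters. They were chosen by symbol, as every row of the deposited gene table whose symbol begins with Polr1, Polr2, Polr3, Gtf2, Gtf3 or with Taf and a digit. Of 77 such rows, 3 were left out by name (Gtf2a1l, Taf7l and Taf4b) and 1 because it carried several symbols, which left 73 rows for 69 symbols out of 56324 rows. Taf1b and Gtf2i had 3 rows each, and the highest row of each stands for the gene below. In all, 72 of the 73 rows reached the mean of 10 that was required for a test, and the row that did not was a further row of Taf1b. Taf10 was not analysed here.

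Polyadenylated RNA was sequenced with a strand-marking kit from germ cells of male C57Bl/6 mice aged 12 weeks. The groups were 3 samples of spermatids, the haploid cells that follow meiosis and become sperm, and 2 samples of spermatocytes, the cells in meiosis. Both fractions came from mice of that strain, with no allele or agent named, and were separated by sedimentation at unit gravity (Sta-put), which sorts cells mainly by size. The labels give no purity for either fraction. The labels do not say whether samples came from separate animals, so a p-value here speaks of the spread among the 5 libraries alone, part of which may be technical.

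Each of the 3 nuclear polymerases makes its own class of RNA: Pol I the large ribosomal RNA, Pol II messenger RNA, and Pol III transfer RNA and other small RNAs. A polymerase cannot find a promoter alone. For Pol II, TFIID (the TATA-binding protein TBP with its associated factors, the TAFs) recognises the promoter, TFIIA and TFIIB follow, and TFIIF, TFIIE and TFIIH bring in the enzyme and open the DNA; SL1 serves Pol I, and TFIIIA, TFIIIB and TFIIIC serve Pol III. Male germ cells are known for exchanging parts of this machinery for paralogs, and transcription slows and stops as spermatid chromatin is packed with protamines.

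Values are the authors' normalized read counts, that is, reads per gene divided by a size factor for the library. Reads recovered from them came to 62249782, 84361908 and 76907629 in spermatid replicates 1, 2 and 3, and to 52784231 and 80384019 in spermatocyte replicates 1 and 2. The fractions were checked with marker lists: 13 of 13 spermatid markers were higher in spermatids, and their summed level was 643270 to 1712899 in spermatids and 14341 to 18728 in spermatocytes. Of 11 spermatocyte markers 6 were lower and 2 higher in spermatids, with sums of 49766 to 72280 in spermatids and 166819 to 184756 in spermatocytes. Piwil1, with 4315 to 6012 in spermatids and 88212 to 97665 in spermatocytes, makes up most of the sums in spermatocytes. All 16 Sertoli cell markers were lower in spermatids, with sums of 3100 to 4385 in spermatids and 78121 to 102247 in spermatocytes, and so were all 8 Leydig cell markers (166 to 386 in spermatids, 3294 to 4053 in spermatocytes). Of 11 markers of myoid, endothelial, macrophage and blood cells 8 were higher and 1, Pecam1, lower in spermatids (sums 2366 to 3249 in spermatids, 463 to 596 in spermatocytes). Of 10 spermatogonial markers 5 were higher and 1, Uchl1, lower (sums 34245 to 38407 in spermatids, 31699 to 35686 in spermatocytes). Dmrtb1, with 31765 to 35334 in spermatids and 29917 to 34125 in spermatocytes, makes up most of those sums, while Stra8, Sohlh1, Sohlh2, Gfra1 and Kit were 2.26-fold to 7.95-fold higher in spermatids. No marker was at 0 throughout a group. These markers of other cells moved with the groups, and their part in the results below was not tested.

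Most genes of the machinery had less messenger RNA, relative to all genes, in spermatids than in spermatocytes. Of the 72 rows tested, 39 fell, 16 rose and 17 did not pass the threshold (limma on log2(value + 1), Benjamini-Hochberg adjusted p under 0.05 over all 28370 rows with a mean of at least 10). Thus 54.2% of the rows fell, where 36.5% of all rows tested did, and 22.2% rose, where 40.6% of all rows did. Among the 18417 tested rows that carry exactly 1 gene symbol, 31.4% fell and 45.4% rose. The median log2 fold change, spermatids over spermatocytes on the log2(value + 1) scale, was -0.60 for the 72 rows and 0.07 for all rows tested. For the tested rows that carry exactly 1 gene symbol it was 0.29. Falls of at least 2-fold were seen for 25 rows, against 28.7% of all rows, and rises of that size for 7 rows, against 33.2% of all rows. No overlap between groups was seen in 62 of the 72 rows (86.1%), near the 85.8% of all rows tested: spermatids lay below spermatocytes in 41 rows (41.5% of all rows did) and above in 21 rows (44.3% of all rows did). In bulk samples fewer cells of a type and less RNA per cell cannot be told apart.

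**Figure D1:**
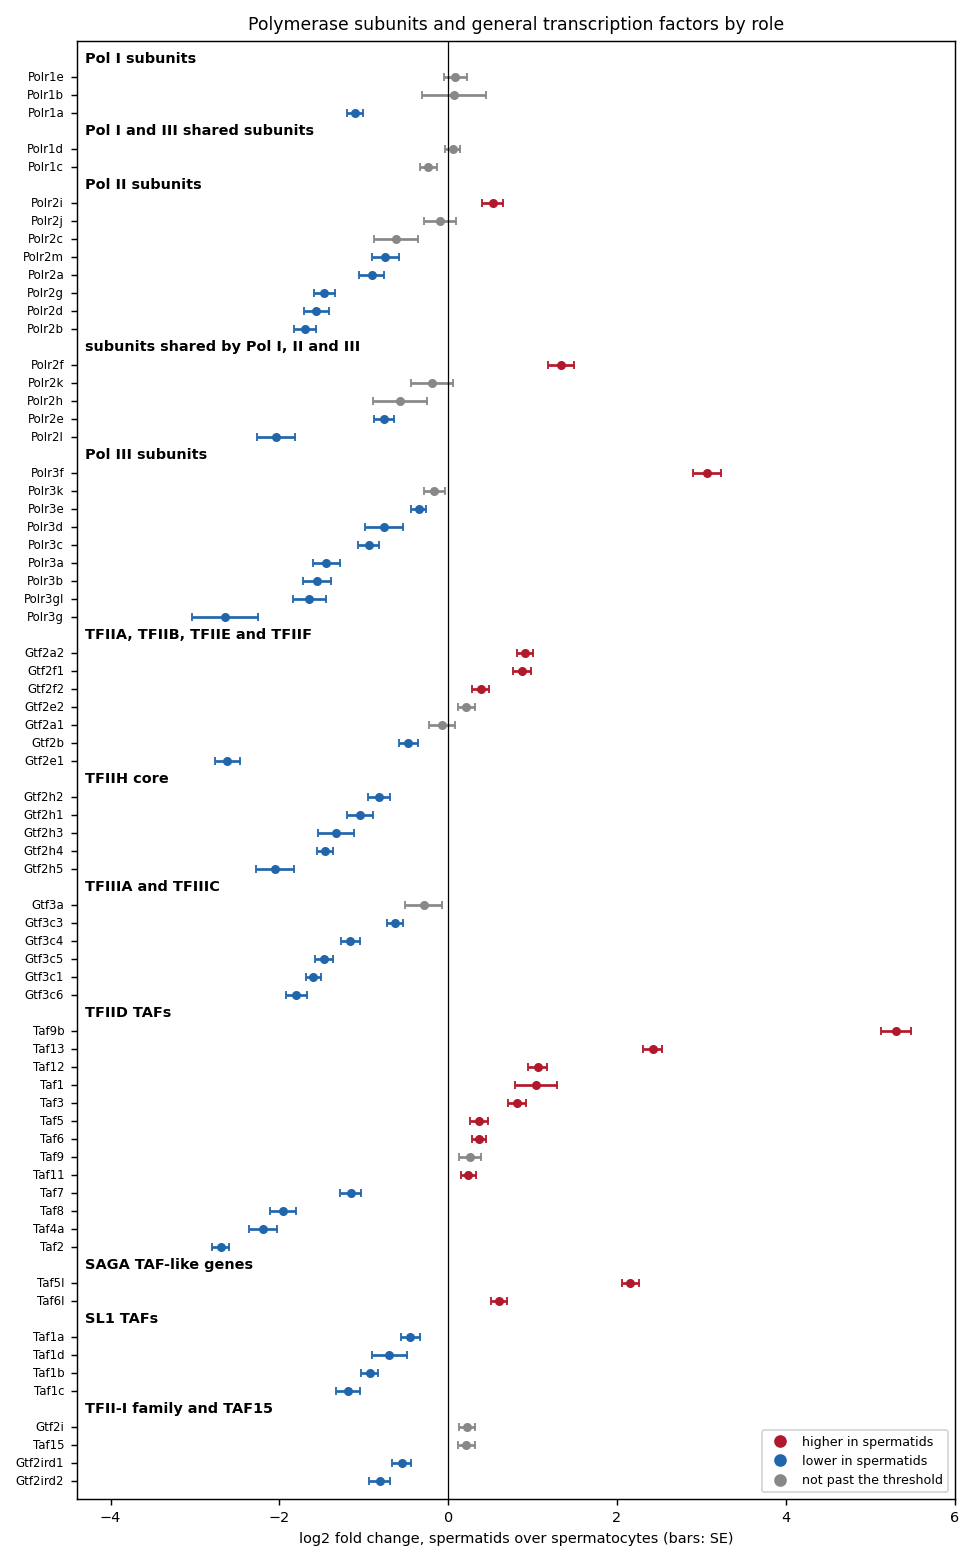
Log2 fold change of each gene shown, spermatids over spermatocytes, on the horizontal axis, with its standard error as a bar, grouped by role; red genes rose in spermatids, blue genes fell and grey genes did not pass the threshold. The TFIIH, TFIIIC and SL1 groups lie left of 0, whereas the TFIID TAFs run from -2.70 for Taf2 to 5.31 for Taf9b; with equal library totals every point moves left, and Polr1e, Polr1b, Polr1d, Polr2i, Gtf2e2, Gtf2f2, Taf5, Taf6, Taf9, Taf11, Taf6l, Gtf2i and Taf15 cross to the left of 0.

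The direction of small changes depended on how libraries were scaled. The normalized values of spermatids sum to more than those of spermatocytes, and the median log2 fold change of all rows was -0.57 when every library was given the same total, -0.42 after quantile normalization and -0.04 with TMM factors. The median of the 72 rows moved with it, to -1.24, -1.14 and -0.70, so that the distance between both medians was -0.66 as deposited, -0.67 with equal totals, -0.73 after quantile normalization and -0.66 with TMM factors. With equal totals 7 rows rose and 56 fell, under quantile normalization 8 rose and 56 fell, and with TMM factors 15 rose and 41 fell. Of all rows tested, 30.5% rose and 49.4% fell with equal totals, 32.9% and 46.9% after quantile normalization, and 38.9% and 38.7% with TMM factors. Among the 72 rows the share of calls that were rises was accordingly 29.1% as deposited, 11.1%, 12.5% and 26.8%. Over all rows tested this share was 52.6% as deposited, 38.1%, 41.3% and 50.1% in the same order. Of the 17 rows that did not pass as deposited, the same 15 fell with equal totals and after quantile normalization, all but Polr1b and a further row of Gtf2i; with TMM factors 2 of them fell (Polr1c and Polr2c). Under all 4 scalings 39 rows fell, and 6 rows rose: Taf9b, Polr3f, Taf13, Taf5l, Polr2f and Taf12.

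**Figure D2:**
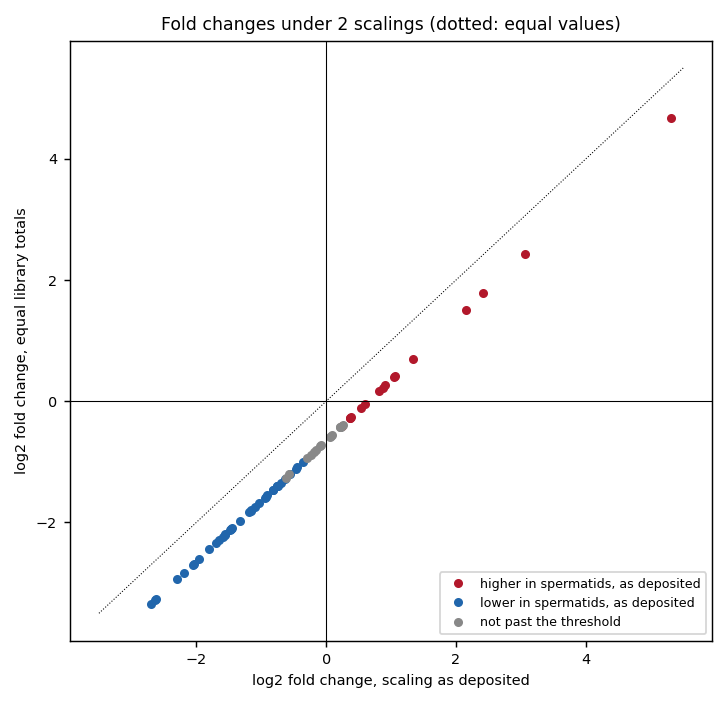
Log2 fold change of the 69 genes, 1 row each, with the authors' size factors (horizontal axis) and with equal library totals (vertical axis). Points are coloured by the call as deposited, and the dotted line marks equal values. All points lie below the line, and 6 of the genes that rose as deposited (Polr2i, Gtf2f2, Taf5, Taf6, Taf11 and Taf6l) lie below 0 on the vertical axis.

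The promoters of the genes with the largest rises and falls are shown first, since their letters can be set beside the values that follow. RefSeq promoter windows (build GRCm38.p6, 250 bases before to 50 after the annotated start) were at hand for 60 of the 69 genes. The 5 sequences below belong to the 3 largest called rises (Taf9b, Polr3f and Taf13) and the 2 largest called falls that had an entry (Polr3g and Gtf2e1). They lie at chrX:106221109-106221408 (minus strand), chr2:144527495-144527794 (plus), chr3:108571449-108571748 (plus), chr13:81710964-81711263 (minus) and chr16:37539740-37540039 (minus), and are written 5′ to 3′ along the gene. Capitals mark TATAAA (the TATA box), TGACGTCA (the cAMP response element, CRE) or its shorter core TGACG, and CCGGAAG (a core bound by ETS factors), on either strand.
Taf9b: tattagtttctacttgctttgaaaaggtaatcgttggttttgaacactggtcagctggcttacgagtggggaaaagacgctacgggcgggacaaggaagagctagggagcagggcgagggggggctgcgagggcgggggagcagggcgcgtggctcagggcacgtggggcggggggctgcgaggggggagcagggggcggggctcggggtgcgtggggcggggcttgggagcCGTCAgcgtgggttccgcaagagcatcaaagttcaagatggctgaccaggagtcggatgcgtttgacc
Polr3f: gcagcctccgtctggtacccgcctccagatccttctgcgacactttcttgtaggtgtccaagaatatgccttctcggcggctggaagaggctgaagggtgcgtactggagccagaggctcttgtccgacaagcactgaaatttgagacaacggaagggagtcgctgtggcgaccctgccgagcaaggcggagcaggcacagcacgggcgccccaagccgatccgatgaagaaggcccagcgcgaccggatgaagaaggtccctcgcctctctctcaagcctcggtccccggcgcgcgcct
Taf13: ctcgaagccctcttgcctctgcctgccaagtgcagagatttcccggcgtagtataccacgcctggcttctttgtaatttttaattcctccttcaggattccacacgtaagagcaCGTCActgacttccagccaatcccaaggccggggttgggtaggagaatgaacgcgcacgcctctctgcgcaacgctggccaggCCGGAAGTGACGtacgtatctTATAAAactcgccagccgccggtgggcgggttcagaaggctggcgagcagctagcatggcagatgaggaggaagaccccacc
Polr3g: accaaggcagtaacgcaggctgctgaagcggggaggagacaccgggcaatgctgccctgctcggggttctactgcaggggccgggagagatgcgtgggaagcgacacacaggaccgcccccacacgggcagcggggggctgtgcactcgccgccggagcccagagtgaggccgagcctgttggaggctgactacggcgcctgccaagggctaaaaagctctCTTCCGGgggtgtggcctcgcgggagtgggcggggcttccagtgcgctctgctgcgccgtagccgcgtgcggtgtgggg
Gtf2e1: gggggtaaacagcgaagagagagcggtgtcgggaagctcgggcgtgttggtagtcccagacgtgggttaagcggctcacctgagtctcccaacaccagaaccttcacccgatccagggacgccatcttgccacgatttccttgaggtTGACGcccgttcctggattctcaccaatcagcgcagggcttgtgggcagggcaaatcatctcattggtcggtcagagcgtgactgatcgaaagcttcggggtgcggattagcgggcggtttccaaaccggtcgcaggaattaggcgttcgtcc

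Taf13 was the one gene of these 5 with a TATA box, 32 bases before its start, and it also held CCGGAAG 53 bases before the start and TGACG 46 bases and a reverse TGACG 136 bases before it. Taf9b held a reverse TGACG 18 bases before its start, Gtf2e1 held TGACG 103 bases before, and Polr3g held a reverse CCGGAAG 29 bases before. The Polr3f window held none of these letters. Among genes with an entry, TATAAA on either strand was found in 6 of 16 genes that rose (37.5%), 2 of 31 that fell (6.45%) and 15.7% of all 27025 genes with an entry. TGACG, counted with its occurrences inside TGACGTCA, was found in 62.5% of the genes that rose, 25.8% of those that fell and 23.0% of all genes with an entry, and TGACGTCA itself in 12.5%, 3.23% and 2.03%. CCGGAAG was found in 56.3%, 29.0% and 9.93%, GGGCGG (the GC box) in 62.5%, 74.2% and 38.2%, and CCAAT in 31.3%, 38.7% and 41.1% in the same order. The median window held 24 CpG dinucleotides in both sets of genes and 7 over all genes with an entry. These shares describe letters in a window and were not tested.

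Of the 3 genes with a Polr1 symbol whose products only Pol I uses, 1 fell and 2 did not pass the threshold. Their median log2 fold change was 0.07 as deposited and -0.57 under equal totals. Pol I subunits with other symbols are counted with the partners below: Cd3eap and Twistnb fell (log2 fold changes -1.03 and -0.78), and Znrd1 rose (2.16). Polr1a, the catalytic subunit, had normalized counts of 3955, 3501 and 3982 in spermatids, against 8173 and 8158 in spermatocytes. Every spermatid sample lay below both spermatocyte samples, 2.14-fold lower by the means (log2 fold change -1.10, SE 0.10, limma adjusted p = 5.74e-05). Polr1e, part of a dimer that helps the enzyme start, had 659, 794 and 675 in spermatids, against 683 and 652 in spermatocytes. These values overlapped and the gene did not pass the threshold, with a log2 fold change of 0.08 (limma adjusted p = 0.59) that turned to a fall with equal totals (-0.56, limma adjusted p = 0.0204) and with quantiles matched between libraries (-0.36, limma adjusted p = 0.0435). Polr1b, the second-largest subunit, did not pass either, and its values overlapped between groups.

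Polr1c and Polr1d form the dimer on which both Pol I and Pol III are assembled, and neither passed the threshold as deposited. Polr1d had 15417, 16017 and 14779 in spermatids, against 15472 and 14253 in spermatocytes, which overlap; its log2 fold change of 0.05 (limma adjusted p = 0.602) turned to a fall with equal totals (-0.59, limma adjusted p = 0.00132) and with quantiles matched between libraries (-0.70, limma adjusted p = 0.000391). Polr1c had 3217, 3412 and 3729 in spermatids, against 4129 and 4005 in spermatocytes. The groups did not overlap for Polr1c, with spermatids lower (log2 fold change -0.24, SE 0.10, limma adjusted p = 0.0636), and the gene was called lower under the other 3 scalings: with TMM factors (-0.34, limma adjusted p = 0.0195), equal totals (-0.88) and quantile normalization (-0.85). On the per-length scale Polr1d was the most abundant polymerase subunit transcript, at 6936 per kb in spermatids and 6692 per kb in spermatocytes.

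Of the 8 genes grouped here with Pol II, 5 fell (Polr2a, Polr2b, Polr2d, Polr2g and Polr2m), 1 rose (Polr2i) and 2 did not pass (Polr2c and Polr2j). Their median log2 fold change was -0.83. Polr2m encodes a factor that associates with the enzyme and is not 1 of its 12 subunits. Polr2c fell under the other 3 scalings (-0.73 with TMM factors, limma adjusted p = 0.0326; -1.27 with equal totals; -1.05 after quantile normalization), and Polr2j fell with equal totals (-0.75) and quantile normalization (-0.53). Polr2a, which carries the repeat tail that coordinates RNA processing, had 6619, 8932 and 8755 in spermatids, against 15420.3 and 14740.1 in spermatocytes. All 3 spermatid values lay below both spermatocyte values (log2 fold change -0.91, SE 0.14, limma adjusted p = 0.00104). Polr2b, which forms the active site together with Polr2a, had 2078, 2384 and 1801 in spermatids, against 6650.3 and 6839 in spermatocytes. It showed the largest fall of this group, 3.23-fold by the means (log2 fold change -1.70, SE 0.13, limma adjusted p = 3.32e-05). Polr2d and Polr2g, the pair that makes the stalk of the enzyme, fell, with log2 fold changes of -1.56 and -1.47. Polr2i, a small subunit that in yeast affects start site choice and fidelity, had 3685, 3371 and 2971 in spermatids, against 2448 and 2174 in spermatocytes. Its rise (log2 fold change 0.53, SE 0.12, limma adjusted p = 0.00662) was lost with equal totals, where the log2 fold change was -0.12, and after quantile normalization, where it was -0.03, and also without spermatocyte replicate 2 (0.44, limma adjusted p = 0.065).

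The 5 subunits common to Pol I, II and III went different ways. Polr2f had 1392, 1907 and 1602 in spermatids, against 644 and 639.7 in spermatocytes. It rose 2.55-fold with no overlap (log2 fold change 1.33, SE 0.15, limma adjusted p = 0.000199), also under the other 3 scalings. Polr2l had 74.4, 72.4 and 57.6 in spermatids, against 268 and 296 in spermatocytes, so that all spermatid samples were lower, 4.14-fold by the means (log2 fold change -2.04, SE 0.22, limma adjusted p = 0.00016). Polr2e, with 1553, 1281 and 1425 in spermatids, against 2481 and 2319 in spermatocytes, also fell (log2 fold change -0.76, SE 0.12, limma adjusted p = 0.000925). Polr2h and Polr2k overlapped between the groups and did not pass the threshold, though both fell with equal totals and after quantile normalization. Polr2f and Polr2l are components of one and the same enzymes, and their transcripts stood at 1846 per kb in spermatids and 725 per kb in spermatocytes for the first, and at 41.3 per kb in spermatids and 171 per kb in spermatocytes for the second.

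Most subunits of Pol III fell, and the polymerase subunit with the largest rise was also one of its own. Of the 10 genes with a Polr3 symbol, 8 fell, 1 rose and 1 (Polr3k, which acts in transcript cleavage and termination) did not pass. Their median log2 fold change was -1.19. Crcp, a Pol III subunit without such a symbol, also fell (log2 fold change -0.77, limma adjusted p = 0.00146). The catalytic subunits Polr3a and Polr3b fell, with log2 fold changes of -1.44 and -1.55. Polr3c and Polr3e, the genes with a Polr3 symbol that had the highest values, fell less. Polr3c had 2181, 1864 and 1775 in spermatids, against 3933 and 3516 in spermatocytes (log2 fold change -0.94, SE 0.12, limma adjusted p = 0.0004). Polr3e had 4420.2, 4657 and 4798 in spermatids, against 6158 and 5646 in spermatocytes (log2 fold change -0.35, SE 0.09, limma adjusted p = 0.0108), a call that was lost without spermatocyte replicate 1 (limma adjusted p = 0.097) and without the mean-variance trend (limma adjusted p = 0.062).

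Polr3f was the gene with a Polr3 symbol that rose. It encodes a member of the trimer, with Polr3c and Polr3g or Polr3gl, that contacts TFIIIB at the promoter, and lies at chr2:144527718-144541779 (mm10). Its normalized counts were 539.5, 606 and 573 in spermatids, against 63.6 and 71.7 in spermatocytes. Every spermatid sample exceeded both spermatocyte samples by a wide margin, 8.47-fold by the means (log2 fold change 3.06, SE 0.16, limma adjusted p = 5.98e-06). Per length it was the scarcest polymerase subunit transcript in spermatocytes, with 104 per kb in spermatids and 12.3 per kb in spermatocytes. The other members of the trimer, Polr3c, Polr3g and Polr3gl, all fell.

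**Figure D3:**
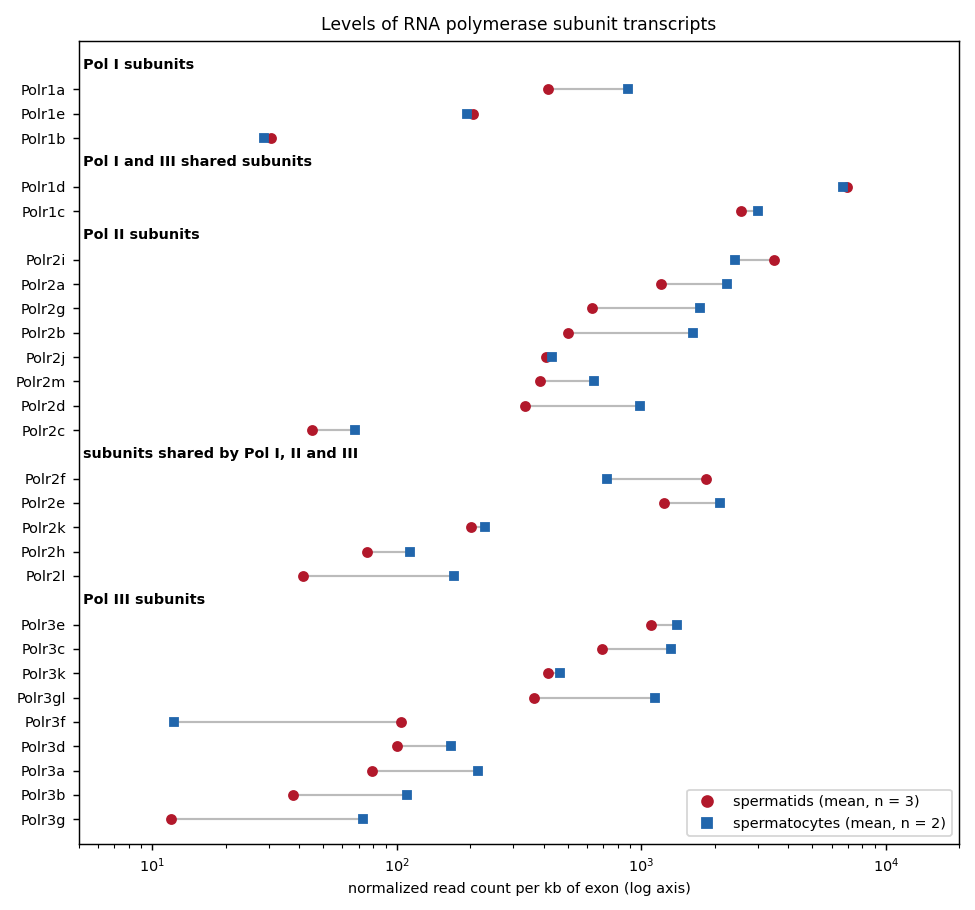
Mean normalized read count per kb of exon (log axis) of each polymerase subunit shown, in spermatids (red circles, n = 3) and spermatocytes (blue squares, n = 2), ordered within each group by the level in spermatids. Polr3f is the subunit whose red circle lies farthest to the right of its square, at 104 per kb in spermatids against 12.3 per kb in spermatocytes; Polr2f and Polr2i also lie to the right, Polr2i only as deposited and with TMM factors.

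Polr3g and Polr3gl encode alternative versions of the same subunit, the first known mainly from stem cells and tumours and the second from most differentiated cells. Polr3g had 23.3, 54.5 and 45.1 in spermatids, against 218 and 279 in spermatocytes, and its lowest library held 15 reads. Polr3gl had 518, 609.5 and 435 in spermatids, against 1865 and 1399 in spermatocytes. Both fell with no overlap (log2 fold change -2.64, SE 0.39, limma adjusted p = 0.000761 for Polr3g, and log2 fold change -1.64, SE 0.19, limma adjusted p = 0.000232 for Polr3gl). The log2 ratio of Polr3g to Polr3gl was -4.42, -3.46 and -3.24 in spermatids and -3.09 and -2.32 in spermatocytes. Spermatids lay below spermatocytes in the ratio by 1.00 on average, without passing a two-sided exact permutation test (p = 0.2, adjusted over 4 pairs 0.2; the smallest p that 3 against 2 samples allow is 0.1). Per length Polr3g made up 3.18% of the pair in spermatids and 5.97% in spermatocytes.

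Among TFIIA, TFIIB, TFIIE and TFIIF, 3 of 7 genes rose (Gtf2a2, Gtf2f1 and Gtf2f2), 2 fell (Gtf2e1 and Gtf2b) and 2 did not pass (Gtf2e2 and Gtf2a1). Their median log2 fold change was 0.21 as deposited, but -0.43 under equal totals and -0.53 under quantile normalization. Gtf2a2, the small subunit of TFIIA, had 13475, 12912 and 11511 in spermatids, against 6872 and 6554 in spermatocytes. It rose 1.88-fold (log2 fold change 0.91, SE 0.10, limma adjusted p = 0.000162) and passed with equal totals (log2 fold change 0.26) but not after quantile normalization (0.17, limma adjusted p = 0.083). Gtf2f1 and Gtf2f2, which form TFIIF, rose by a log2 of 0.87 and 0.38; with equal totals neither passed, at 0.22 for Gtf2f1 and -0.26 for Gtf2f2.

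Of the subunits of TFIIE, Gtf2e1 fell under every scaling, whereas the call for Gtf2e2 depended on it. TFIIE is built from the products of Gtf2e1 and Gtf2e2 and recruits TFIIH to the promoter. Gtf2e1 had 414, 406 and 324 in spermatids, against 2342 and 2323 in spermatocytes. It was 6.12-fold lower in spermatids, with every spermatid sample far below both spermatocyte samples (log2 fold change -2.62, SE 0.15, limma adjusted p = 7.41e-06). Gtf2e2 had 12910.2, 10827 and 11529 in spermatids, against 10453 and 9788 in spermatocytes. It did not pass the threshold (log2 fold change 0.21, SE 0.10, limma adjusted p = 0.0986), but it fell with equal totals (-0.43, limma adjusted p = 0.00283) and with quantiles matched between libraries (-0.53, limma adjusted p = 0.000696); the difference between both genes was not tested. Per length Gtf2e1 stood at 124 per kb in spermatids and 756 per kb in spermatocytes, and Gtf2e2 at 6161 per kb in spermatids and 5304 per kb in spermatocytes.

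TFIIH unwinds promoter DNA and also acts in nucleotide excision repair. All 5 core genes with a Gtf2h symbol fell under each of the 4 scalings, with log2 fold changes between -2.05 and -0.82 and a median of -1.33 as deposited. Gtf2h5, the smallest subunit, had 312, 435 and 259.9 in spermatids, against 1449 and 1285 in spermatocytes. No spermatid value reached the spermatocyte values (log2 fold change -2.05, SE 0.23, limma adjusted p = 0.00017). Gtf2h1 had 9606, 6809 and 7345 in spermatids, against 16634 and 15591 in spermatocytes (log2 fold change -1.04, SE 0.15, limma adjusted p = 0.000725). Gtf2h4, the subunit that anchors the XPB helicase, had 895, 875 and 922 in spermatids, against 2433 and 2511 in spermatocytes (log2 fold change -1.46, SE 0.10, limma adjusted p = 1.77e-05). Of the 10 TFIIH genes in all, counting the helicases and the kinase module, 9 fell and 1 rose. The exception was Ercc3, the XPB helicase, with 6851, 6967 and 6739 in spermatids, against 4542 and 4341 in spermatocytes. Its rise (log2 fold change 0.63, SE 0.08, limma adjusted p = 0.000414) was lost with equal totals (log2 fold change -0.02) and quantile normalization (-0.03). Ercc2, the XPD helicase, fell most, with 619, 620.4 and 786 in spermatids, against 3762 and 3885 in spermatocytes (log2 fold change -2.51, SE 0.14, limma adjusted p = 7.05e-06).

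TFIIIC, which binds inside transfer RNA genes, fell in all 5 genes measured, while Gtf3a, the 5S ribosomal RNA factor TFIIIA, overlapped between groups and did not pass the threshold as deposited, though it fell with equal totals (-0.93) and quantile normalization (-0.72). Gtf3c1, the largest subunit, had 4312, 4161 and 4728 in spermatids, against 13414 and 13164 in spermatocytes. It was 3.02-fold lower in spermatids (log2 fold change -1.60, SE 0.09, limma adjusted p = 8.78e-06). Gtf3c6, a small subunit, had 279, 261 and 271 in spermatids, against 968 and 917 in spermatocytes, the largest fall of the group (log2 fold change -1.80, SE 0.13, limma adjusted p = 2.37e-05). Gtf3c4 had 2642, 2169 and 2563 in spermatids, against 5507 and 5457 in spermatocytes (log2 fold change -1.16, SE 0.11, limma adjusted p = 9.84e-05). Gtf3c3 and Gtf3c5 also fell, with log2 fold changes of -0.64 and -1.47. For the 5 TFIIIC genes all spermatid samples lay below all spermatocyte samples, as in 41.5% of all rows tested.

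The TFIID TAFs split. Of 13 genes, 8 rose (Taf9b, Taf13, Taf12, Taf1, Taf3, Taf5, Taf6 and Taf11), 4 fell (Taf2, Taf4a, Taf8 and Taf7) and Taf9 did not pass. For every one of the 13 the groups did not overlap, as in 85.8% of all rows tested. With equal totals the rises were 3 (Taf9b, Taf13 and Taf12) and the falls 7, with Taf6 and Taf11 among the falls. The median log2 fold change was 0.37 as deposited, -0.28 under equal totals and -0.32 under quantile normalization. The span within this 1 complex, from -2.70 to 5.31, was wider than in any other of the 12 role groups.

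Taf9b had the largest rise of all 72 rows. It lies on the X chromosome at chrX:106206876-106221160 and encodes a histone-fold TAF that can take the place of TAF9. Its normalized counts were 1747, 1925 and 1536 in spermatids, against 48.5 and 37.5 in spermatocytes. The groups were far apart, 40.4-fold by the means (log2 fold change 5.31, SE 0.18, limma adjusted p = 8.81e-07). By level per length it ranked 28 among the 69 genes in spermatids and 68 in spermatocytes. The other X-linked gene, Taf1, the largest TAF and the scaffold of TFIID, rose by a log2 of 1.04 but did not pass with equal totals (0.39, limma adjusted p = 0.24). Of all 828 X-linked rows tested 63.0% rose, as did both X-linked genes here.

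Taf13, the histone-fold partner of Taf11, had 2237, 2551 and 2267 in spermatids, against 438 and 435 in spermatocytes. It rose 5.38-fold with no overlap (log2 fold change 2.42, SE 0.11, limma adjusted p = 3.1e-06), whereas Taf11 rose by a log2 of 0.24 as deposited but fell under equal totals (-0.41) and quantile normalization (-0.34). Taf12, the histone-fold partner of TAF4, rose by a log2 of 1.06, and Taf4a, its partner, fell. Taf4a had 121, 126 and 119 in spermatids, against 537 and 587 in spermatocytes, with the spermatid samples close to each other and 4.61-fold lower by the means (log2 fold change -2.19, SE 0.16, limma adjusted p = 2.57e-05). Taf2, which contacts the initiator element around the start site, had 1764, 1672 and 1532 in spermatids, against 10497 and 10952 in spermatocytes. This was the largest fall among the 69 genes, 6.48-fold by the means (log2 fold change -2.70, SE 0.10, limma adjusted p = 1.25e-06), and by level per length Taf2, at chr15:55015129-55072153, ranked 43 among the 69 genes in spermatids and 14 in spermatocytes. Taf7, which restrains TAF1, and Taf8 fell, with log2 fold changes of -1.16 and -1.96. The Taf7 row overlaps a row of the protocadherin cluster that was higher than Taf7.

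**Figure D4:**
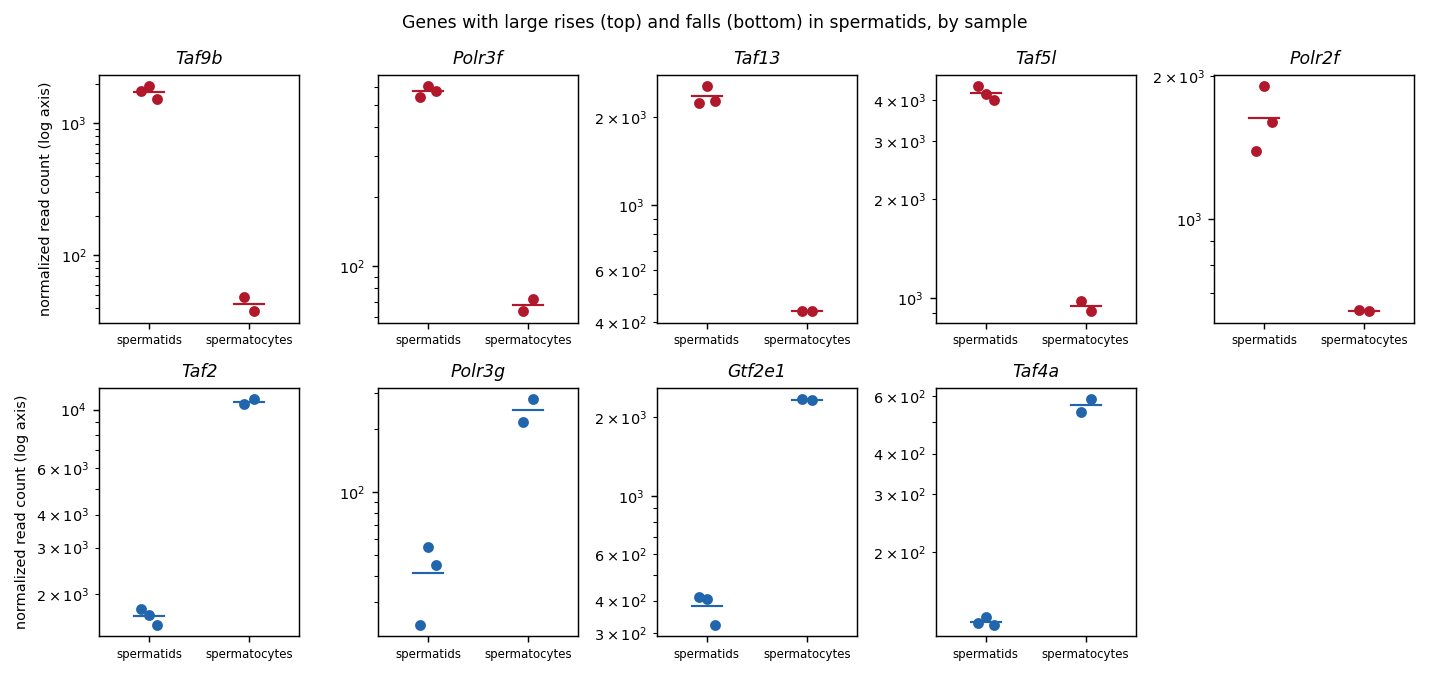
Normalized read count (log axes, a separate scale in each panel) of the 5 genes with the largest rises (top, red) and 4 of the 5 with the largest falls (bottom, blue) in each spermatid sample (left, n = 3) and spermatocyte sample (right, n = 2); horizontal bars are means. In every panel the groups do not overlap; the widest gap is that of Taf9b, at 1536 to 1925 in spermatids and 37.5 to 48.5 in spermatocytes.

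Taf9 was the most abundant of the 69 transcripts per length in both groups, at 44589.5 per kb in spermatids and 37164 per kb in spermatocytes. Its normalized counts were 100537, 85462 and 78997 in spermatids, against 77524 and 69718 in spermatocytes. The groups did not overlap, but the gene did not pass the threshold (log2 fold change 0.26, SE 0.12, limma adjusted p = 0.0979), and it was called lower with equal totals (-0.39) and quantile normalization (-0.32). The GENCODE vM21 annotation places Ak6 on the same strand at chr13:100650979-100666359, over nearly the whole Taf9 locus, and no separate level of Ak6 was used, so the Taf9 row may hold reads of both. The log2 ratio of Taf9b to Taf9 was -5.85, -5.47 and -5.68 in spermatids and -10.6 and -10.8 in spermatocytes. The ratio was thus higher in spermatids by 5.05 with no overlap (two-sided exact permutation p = 0.1, the smallest possible; adjusted over 4 pairs 0.133). Per length Taf9b made up 1.41% of the pair in spermatids and 0.0426% in spermatocytes.

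Taf5l and Taf6l encode relatives of TAF5 and TAF6 that belong to the SAGA coactivator and not to TFIID. Taf5l had 4425, 4169 and 4016 in spermatids, against 977 and 909 in spermatocytes. It rose 4.46-fold (log2 fold change 2.16, SE 0.10, limma adjusted p = 3.02e-06). Its paralog Taf5 had 1935, 1789 and 1817 in spermatids, against 1525 and 1342 in spermatocytes, a rise (log2 fold change 0.37, SE 0.11, limma adjusted p = 0.0177) that was lost with equal totals (-0.28), quantile normalization (-0.13), without spermatocyte replicate 2 (limma adjusted p = 0.13) and without the mean-variance trend (limma adjusted p = 0.062). The log2 ratio of Taf5l to Taf5, in which the scale of a library cancels, was 1.19, 1.22 and 1.14 in spermatids and -0.64 and -0.56 in spermatocytes. The ratio was thus higher in every spermatid sample than in either spermatocyte sample (difference 1.79, two-sided exact permutation p = 0.1, adjusted 0.133). Per length Taf5l made up 70.4% of the pair in spermatids and 40.7% in spermatocytes.

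Taf6l had 2656, 2749 and 2688 in spermatids, against 1843 and 1718 in spermatocytes. Its rise (log2 fold change 0.60, SE 0.09, limma adjusted p = 0.000913) was lost with equal totals (-0.05) and quantile normalization (0.07, limma adjusted p = 0.54). Taf6 had 12826, 12423 and 12162 in spermatids, against 9974 and 9363 in spermatocytes (log2 fold change 0.37, SE 0.08, limma adjusted p = 0.00557), and turned to a fall with equal totals (-0.28) and quantile normalization (-0.37); without spermatocyte replicate 2 it did not pass (limma adjusted p = 0.059). The log2 ratio of Taf6l to Taf6 was -2.27, -2.18 and -2.18 in spermatids and -2.44 and -2.45 in spermatocytes, higher in spermatids by 0.23 (two-sided exact permutation p = 0.1, adjusted 0.133). Taf6l made up 16.8% of the pair per length in spermatids and 14.7% in spermatocytes.

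**Figure D5:**
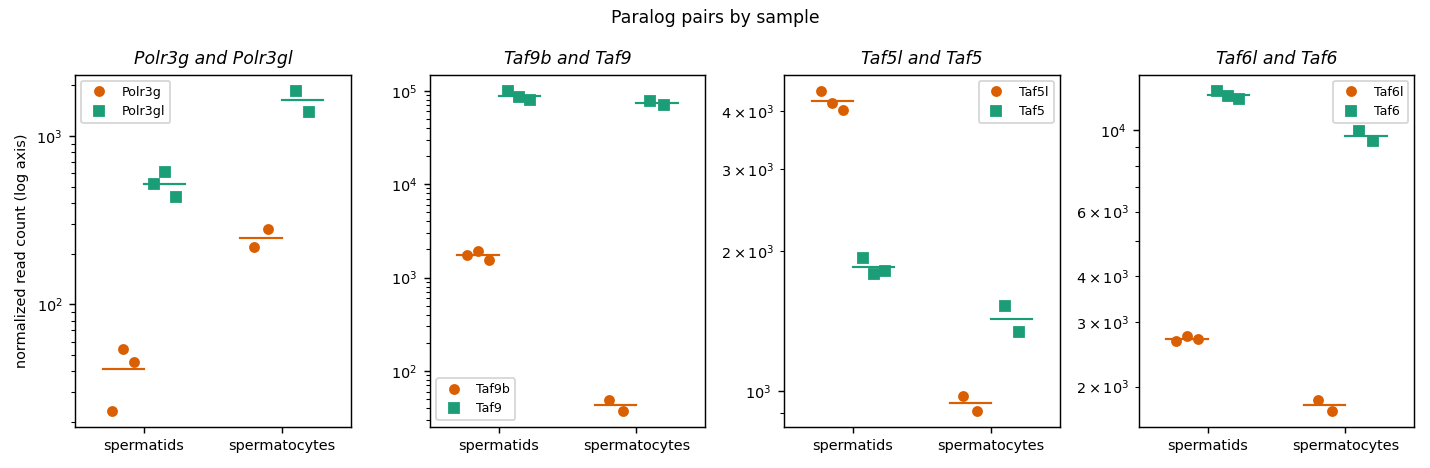
Normalized read count (log axes) of the genes of each paralog pair in every spermatid sample (left, n = 3) and spermatocyte sample (right, n = 2); orange circles are the first gene named, green squares the second, and horizontal bars are means. Counts are not corrected for length; in the Taf5l and Taf5 panel the log2 ratio is 1.14 to 1.22 in spermatids and -0.64 to -0.56 in spermatocytes.

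The 4 TAFs of SL1, the selectivity factor of Pol I, all fell under each of the 4 scalings, with a median log2 fold change of -0.82 as deposited. Taf1b had 3276, 2977 and 2862 in spermatids, against 5946 and 5639 in spermatocytes. Spermatid samples were lower throughout (log2 fold change -0.93, SE 0.10, limma adjusted p = 0.000143). Taf1a had 1296, 1095 and 1149.7 in spermatids, against 1664 and 1549.6 in spermatocytes (log2 fold change -0.45, SE 0.12, limma adjusted p = 0.0113) and did not pass without spermatocyte replicate 1 (limma adjusted p = 0.084). Taf1c had 448, 396 and 499 in spermatids, against 1044 and 988 in spermatocytes, the largest fall of the 4 (log2 fold change -1.19, SE 0.14, limma adjusted p = 0.000267); its row overlaps that of Dnaaf1, which was higher, and reads of both cannot be told apart without the strand setting. Taf1d fell as well, and overlaps 4931406C07Rik, which was also higher.

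Of the TFII-I family and TAF15, which share the naming but act as gene-specific or RNA-binding factors, 2 fell and 2 did not pass. Gtf2i, the gene for TFII-I, had 26783, 29013 and 30682 in spermatids, against 24851 and 24508 in spermatocytes. Its groups did not overlap, it did not pass the threshold (log2 fold change 0.22, SE 0.09, limma adjusted p = 0.0598), and it was called lower with equal totals (-0.42) and quantile normalization (-0.52). Gtf2ird2 had 642, 609.5 and 558 in spermatids, against 1074 and 1043 in spermatocytes (log2 fold change -0.81, SE 0.12, limma adjusted p = 0.000758). Gtf2ird1 had 2388, 2805 and 2822 in spermatids, against 3934 and 3875 in spermatocytes (log2 fold change -0.55, SE 0.11, limma adjusted p = 0.00304). These 3 genes lie side by side on chromosome 5, with gaps of 13.5 kb and 42.9 kb between them. Taf15 did not pass as deposited but fell with equal totals (-0.43) and quantile normalization (-0.34).

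Other components of the same machinery, which the symbol rule does not match, were taken from lists of subunits, initiation, elongation and assembly factors. Of 56 genes listed, 48 had a row under the listed symbol. Of these, 26 fell (54.2%, against 36.5% of all rows tested), 10 rose (20.8%, against 40.6%) and 12 did not pass. The median log2 fold change of the 48 genes was -0.57. With equal totals 6 of them rose. Of 5 Pol I genes 4 fell and 1 rose: Ubtf, the nucleolar factor UBF, had 364, 545 and 471 in spermatids, against 1315 and 1686 in spermatocytes (log2 fold change -1.71, SE 0.20, limma adjusted p = 0.000254), and Znrd1, a small Pol I subunit, had 3766, 4393 and 3953 in spermatids, against 937 and 862 in spermatocytes (log2 fold change 2.16, SE 0.11, limma adjusted p = 4.77e-06). The groups did not overlap for either gene. Of 9 initiation genes 5 fell and 1, Ercc3, rose as deposited. TBP itself, named here for its place in TFIID, SL1 and TFIIIB and outside the rule, had 14067, 11099 and 11706 in spermatids, against 14823 and 13042 in spermatocytes, which overlap. It did not pass (log2 fold change -0.19, SE 0.13, limma adjusted p = 0.219), but fell with equal totals (-0.83) and quantile normalization (-0.95).

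Elongation factors moved in both directions. Of 25 listed, 18 had a row under the listed symbol. Among these 18 genes 5 rose (27.8%, against 40.6% of all rows tested). Falls numbered 7 (38.9%), near the 36.5% of all rows, and the median log2 fold change was 0.05. Ell2, a subunit of the super elongation complex, had 11498, 9531 and 8165 in spermatids, against 229 and 148 in spermatocytes. It rose 51.6-fold (log2 fold change 5.70, SE 0.22, limma adjusted p = 1.5e-06). Cdk9, the kinase of the positive elongation factor P-TEFb, had 428, 626 and 604 in spermatids, against 2666 and 2565 in spermatocytes, lower in every spermatid sample (log2 fold change -2.26, SE 0.18, limma adjusted p = 4.06e-05). The cyclins of P-TEFb went different ways. Ccnt1 rose (log2 fold change 3.02, limma adjusted p = 1.93e-06), also with equal totals (2.38), and Ccnt2 fell (-0.59, limma adjusted p = 0.0287). Of 10 other Pol III genes 6 fell and 1 rose. Snapc4, of the complex that serves small nuclear RNA genes, had 282, 251 and 259.9 in spermatids, against 779 and 734 in spermatocytes (log2 fold change -1.51, SE 0.14, limma adjusted p = 7.06e-05). Brf2, a TFIIIB subunit for those genes, had 3101, 3815 and 3885 in spermatids, against 2676 and 2639.9 in spermatocytes; its rise (log2 fold change 0.43, SE 0.12, limma adjusted p = 0.0164) was lost with TMM factors (0.33, limma adjusted p = 0.054), equal totals (-0.22) and quantile normalization (-0.15). Of 6 genes for polymerase assembly and import 4 fell and 2, Gpn1 and Rpap2, rose. The rise of Rpap2 (log2 fold change 0.28, limma adjusted p = 0.044) did not pass with TMM factors. With equal totals (-0.36) and quantile normalization (-0.27) Rpap2 was called lower. Gpn3 had 146, 217 and 158 in spermatids, against 1160.1 and 1091 in spermatocytes (log2 fold change -2.71, SE 0.20, limma adjusted p = 2.81e-05), and Gpn1, a related GTPase, had 1101, 1340.0 and 1368 in spermatids, against 559 and 591 in spermatocytes (log2 fold change 1.14, SE 0.14, limma adjusted p = 0.000268), a rise that did not pass with equal totals (0.49, limma adjusted p = 0.054).

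Counted as whole enzymes with these partners, Pol I had 2 rises and 5 falls among 13 genes, Pol II 2 rises and 6 falls among 12, and Pol III 2 rises and 11 falls among 18, the shared subunits counting in each and Polr2m, which fell, left out of Pol II. With equal totals the falls were 10 of 13 for Pol I, 10 of 12 for Pol II and 16 of 18 for Pol III, and the rises 2, 1 and 2. Of all rows tested, 36.5% fell and 40.6% rose as deposited, and 49.4% fell and 30.5% rose with equal totals. For Pol I as deposited, the share of falls was near that of all rows. The risers in at least 1 of these enzymes were Polr2f in all of them, Znrd1 in Pol I, Polr2i in Pol II (lost with equal totals, -0.12) and Polr3f in Pol III.

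The genes left out by name are paralogs known from the germ line, and all 3 were higher in spermatids. Taf7l, an X-linked relative of Taf7, had 2831, 3682 and 2434 in spermatids, against 123 and 186 in spermatocytes. It was 19.3-fold higher (log2 fold change 4.27, SE 0.24, limma adjusted p = 7.19e-06), while Taf7 fell. Taf4b had 657, 1105 and 847 in spermatids, against 340.4 and 396 in spermatocytes (log2 fold change 1.21, SE 0.23, limma adjusted p = 0.00234), while Taf4a fell; with equal totals Taf4b did not pass (0.56, limma adjusted p = 0.104). Gtf2a1l had 57532, 51361 and 51335 in spermatids, against 24844 and 22891 in spermatocytes (log2 fold change 1.16, SE 0.09, limma adjusted p = 4.21e-05), while Gtf2a1 overlapped between groups and did not pass. The differences within these pairs were not tested.

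Marker sums also differed between replicates of a group. Sertoli markers were higher in spermatocyte replicate 2 than in replicate 1. The rows higher in spermatocyte replicate 2 than in 1 were 9 of the 39 that fell in spermatids (23.1%), 2 of the 16 that rose (12.5%) and 43.6% of all rows tested, with median log2 ratios of -0.05, -0.10 and -0.03 in that order. The sum of spermatid markers was highest in spermatid replicate 1, as were Prm1, Prm2, Prm3, Tnp1, Tnp2, Tssk2 and Tssk6. Acrv1, Catsper3, Catsper4, Spaca1, Spaca3 and Tssk1 were not highest there. Set against the mean of the other spermatid replicates, replicate 1 had a median log2 ratio of 0.05 over the 72 rows and 0.02 over all rows. Among the 69 genes, the rows of 28 overlap another row of the table, and for 6 of these an overlapping row had the higher mean of the 5 samples, among them Polr2j, Gtf3a, Taf7, Taf1c and Taf1d.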

How the data were processed

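The deposited table holds 1 normalized signal per gene and sample: counts that the authors scaled by DESeq size factors, per the file headers and per the submitters' processing notes. Those notes also name STAR 2.4.0, SAMtools, Picard, FastQC and build mm10. How reads were counted, with which strand setting and with what treatment of multiple matches, is not given in the sources used here. Every value (100%) was a whole multiple of its column's smallest value, within 0.001, so whole reads were recovered; reads are not independent molecules.

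The main test, for rows with a mean of at least 10, was that of limma 3.58.1 under R 4.3.3 (eBayes with a mean-variance trend) on log2(value + 1), a scale that understates changes of low genes, with Benjamini-Hochberg adjustment at 0.05 over 28370 rows. The cell type labels give the groups, and replicate numbers follow accession order. Ratios within paralog pairs were compared by exact permutation. On recovered reads with the authors' size factors, edgeR 4.0.16 (quasi-likelihood) called 11529 rows higher and 10410 lower, DESeq2 1.42.0 11528 and 10256, and limma 11512 and 10359. The other alternatives were pseudocounts of 0.5 and 10, no filter, a mean of at least 100, 3 other scalings, no trend, and leaving out each replicate.

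Levels per length used exon unions of GENCODE vM21 basic, matched by symbol for all 69 genes. The named genes were, in each role, the 2 with the highest mean and the largest called change in each direction, the paralog pairs, the 5 largest and 5 smallest called changes of all, the extremes of each partner list and the 3 genes left out; a gene so named is not reported here. Members of the remainder are given by counts, ranges or single values, and those values were chosen after they were seen. The genes, lists, motifs and tests were chosen with earlier results of these data known. Summaries and plots used matplotlib 3.10.9, scipy 1.17.1, numpy 2.4.6 and pandas 2.3.3 under Python 3.11.15.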

Additional observations from a re-analysis of the deposited data

How the results depend on the processing

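No paired analysis was possible because the labels give the samples no shared replicate numbers. Of 600 values for the 40 named genes of the set under 15 alternatives, 565 kept their direction and side of the threshold, 21 reversed, 9 lost and 5 gained a call. Scaling moved results most: rises among the 72 rows numbered 7 with equal totals and 8 after quantile normalization, against 16, the median log2 fold change was -1.24 with equal totals, -1.14 after quantile normalization and -0.70 with TMM factors, and 6 partner genes rose with equal totals, against 10 (alternatives for partner counts were chosen after seeing the data). Of all rows tested, 40.6% rose as deposited, 30.5% with equal totals and 32.9% after quantile normalization. Log2 fold changes reversed with equal totals for Polr1e (-0.56), Polr1d (-0.59), Polr2i (-0.12), Gtf2e2 (-0.43), Taf5 (-0.28), Taf6 (-0.28), Taf9 (-0.39), Taf6l (-0.046) and Gtf2i (-0.42). They reversed after quantile normalization for Polr1e (-0.36), Polr1d (-0.70), Polr2i (-0.029), Gtf2e2 (-0.53), Taf5 (-0.13), Taf6 (-0.37), Taf9 (-0.32) and Gtf2i (-0.52), and with TMM factors for Polr1e (-0.021) and Polr1d (-0.053). A single factor per library (equal totals or TMM) shifts all its genes together by construction; quantile normalization does not. Leaving out 1 replicate gave 11 to 17 rises and 33 to 40 falls among the 72 rows, 8 to 12 rises and 22 to 28 falls among partners, and ranges of -0.00059 to 0.13 for Polr1e and -0.0071 to 0.11 for Polr1d. Where 1 spermatocyte sample was left, it was assumed to vary like the spermatids. edgeR called 15 rises and 39 falls among the 72 rows, and DESeq2 16 and 39. Depth limits Polr3g, with 15 reads in its lowest library, and the further rows of Taf1b and Gtf2i.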

Other observations

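Chromosomal neighbours within the set did not always move together. Taf6l and Polr2g lie 6.71 kb apart on chromosome 19, and as deposited Taf6l rose by a log2 of 0.60 (-0.05 with equal totals) while Polr2g fell (-1.47). Gtf3c5 and Gtf3c4 on chromosome 2 both fell (log2 fold changes -1.47 and -1.16), and so did Polr3gl and Polr3c on chromosome 3 (-1.64 and -0.94).

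The order of levels was similar in both cell types. Per kb of exon, the levels of the 69 genes had a Spearman rho of 0.82 between the mean of spermatids and the mean of spermatocytes. This correlation is across genes, which are not independent replicates and share libraries and lengths. The genes that gained most places in spermatids were Taf9b (rank 28 in spermatids, 68 in spermatocytes), Taf13 (22 and 56) and Taf5l (15 and 49), and Taf2 lost most (43 and 14).

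The further rows of Taf1b and Gtf2i were low. A second row of Taf1b had normalized counts of 0, 23.8 and 2.10 in spermatids, against 93.7 and 91.2 in spermatocytes, and fell (limma adjusted p = 0.013). Both further rows of Gtf2i did not pass the threshold.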
